A study of Mus musculus with 12 samples.

Results

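Aminoacyl-tRNA synthetases attach each amino acid to its transfer RNA, and their messenger RNAs were followed here in a mouse osteocyte-like cell line with and without a deletion in the gene of the stretch-gated channel Piezo1. The 36 synthetase genes, 20 cytosolic and 16 mitochondrial, were taken by name from a table of 32245 gene entries, and each was found under its listed symbol. All 36 passed the filter on low counts that left 13772 genes for testing, and each had at least 52 counts in each library. Mitochondrial members carry the suffix 2 in their symbols, and the rule that lists the members uses gene names alone.

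The cells were OCY454, an osteoblast and osteocyte line of mouse long bone immortalized with a temperature-sensitive large T antigen. WT cells were compared with Piezo1 KO cells, made by CRISPR-Cas9 deletion of exons 19 to 21 of the gene. Cells of either genotype were kept at 33 °C and differentiated at 37 °C, with polyadenylated RNA taken on days 1, 14 and 28 of the 37 °C period. Each of the 6 groups (WT and KO at days 1, 14 and 28) had 2 libraries, 12 in all. The labels give neither the number of edited clones nor whether replicates were separate cultures, so p-values measure the spread between these libraries, which may be technical.

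Cytosolic synthetases charge the tRNAs used by cytosolic ribosomes, whereas a second set of nuclear genes encodes most of the enzymes that charge tRNAs inside mitochondria. The gene sets are not fully separate by function. No mitochondrial member is listed for glycine or lysine, whose genes Gars and Kars are classed as cytosolic. Classes follow gene names, so a gene whose product also works in mitochondria is counted as cytosolic in the contrasts below. The enzymes fall into class I and class II, which have unrelated catalytic folds, and several cytosolic members are held in a multisynthetase complex by scaffold proteins. Many cytosolic synthetase genes are known targets of ATF4, the transcription factor that is translated when amino acids are short or proteins misfold. In bone, ATF4 supports the amino acid uptake and collagen synthesis of osteoblasts.

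Libraries held 8590067 to 15357427 counts, of which the 36 members took 0.513% to 0.854%, and genes of the mitochondrial genome 1.12% to 2.31%. The widest gaps between replicates were at day 28, where 164 of 9326 genes of at least 10 CPM (counts scaled to a fixed library total) in WT and 60 of 9083 in KO differed more than 1.5-fold, against 5 of 9305 in WT at day 1. Piezo1 itself was counted in every library, over the whole gene and not by exon. Its level in KO against WT was -0.34 ± 0.06 (log2, SE) at day 1, -0.91 ± 0.06 at day 14 and 0.22 ± 0.06 at day 28 (edgeR adjusted p = 9.07e-05, 1.52e-10 and 0.00418), so the gene count checks the labels little. The 14 osteocyte and osteoblast markers passed the filter, with summed levels at days 1, 14 and 28 of 14700 to 15100, 21000 to 22200 and 7940 to 11100 CPM in WT, and 14800 to 14900, 37000 to 37200 and 6480 to 9030 CPM in KO. At day 14 most of the sum was Col1a1 (6890 and 7500 CPM in WT, 17900 and 17700 in KO) and Col1a2 (9170 and 9810, 14900 and 14900). The osteocyte genes Dmp1, Phex, Mepe and Sost added little to the sum. Over the 12 libraries Dmp1 was at 3.68 to 16.1 CPM, Phex at 2.97 to 11.4, Mepe at 0.495 to 2.2 and Sost at 0.343 to 1.3. Of the 14, 5 were higher and 6 lower in KO at day 14 (edgeR adjusted p below 0.05), against 23.8% and 25.9% of all genes tested. Their median log2 fold change was -0.39, from Dmp1 at -0.92 to Col1a1 at 1.31. Markers of 8 blood genes summed to 10.2 to 24.2 CPM (Cd3e at 0), those of 5 muscle genes to 5.18 to 12.8 (Myod1 and Myog at 0), those of 4 adipocyte genes to 0.566 to 2.95 and those of 5 chondrocyte genes to 3.67 to 22.6. The sum of 5 endothelial markers was 3.97 to 6.37, 10.4 to 14 and 23.9 to 26.8 CPM in WT and 2.58 to 3.16, 2.06 to 2.74 and 10.3 to 11.5 in KO at days 1, 14 and 28. From day 1 to day 28 the rise was mostly Vwf, from 2.21 and 2.03 to 21.6 and 18.7 CPM in WT and from 1.71 and 1.32 to 8.65 and 10.3 in KO. Kdr also rose in WT, from 0.52 and 1.12 to 4.47 and 4.21 CPM. Pecam1, Cdh5 and Tie1 were at most 1.31 CPM in any library, and Cdh5 in WT went from 0.455 and 1.05 to 0.279 and 0.33. The part of these marker levels in the results below was not tested, and in bulk RNA fewer cells of a type and less RNA per cell cannot be told apart.

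Per kilobase of transcript, the median cytosolic member was more abundant than the median mitochondrial member. The median in WT at day 1 was 66.6 CPM per kb over the cytosolic members and 6.11 over the mitochondrial members, and in KO 48.4 and 5.71. Eprs, which encodes the fused glutamyl- and prolyl-tRNA synthetase, was the highest member in each of the 6 groups, at 317 ± 3.17 CPM per kb (SD, n = 2) in WT at day 1. Gars, the glycine enzyme (243 ± 1.86), Nars, the asparagine enzyme (199 ± 0.295), and Sars, the serine enzyme (169 ± 5.14), followed in that group, with gaps larger than their spread. Aars, the alanine enzyme (129.6 ± 1.4), came next, and the pair after it, Dars for aspartate (111.4 ± 0.906) and Tars for threonine (110.8 ± 0.31), did not differ beyond their spread. Qars, the glutamine enzyme, was the lowest cytosolic member in 5 groups (22.1 ± 0.301 in WT at day 1), and Wars, the tryptophan enzyme, was lowest in KO at day 14 (19.2 ± 0.087). Among mitochondrial members Iars2 (isoleucine) was highest in WT at day 1, at 25.0 ± 1.19 CPM per kb, and Nars2 (asparagine) was lowest in each group, at 2.03 ± 0.0989 in WT at day 1. The level of Iars2 lay above that of Qars in the same libraries, so the cytosolic and mitochondrial ranges overlapped. Iars2 shares exonic bases with Rab3gap2 and 2010103J01Rik on the opposite strand. Whether reads were counted by strand is unknown here, so the Iars2 level, and with it this overlap, is uncertain. Sars was the third highest of the 36 in WT at day 14 (188.7 ± 1.5 CPM per kb) and took place 8 in KO at day 14 (81.7 ± 3.21).

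Promoter sequence was examined because ATF4, a known regulator of many cytosolic synthetase genes, binds a composite element of the form TGATGNAA. RefSeq windows from 250 bases before to 50 after the gene start (GRCm38.p6) were found for 27 of the 36 members, 13 cytosolic and 14 mitochondrial, and were searched on both strands. No window was found for Cars, Hars, Lars, Nars, Rars, Vars, Wars, Hars2 and Pars2, so these members were not searched. The element occurred in 5 of the 13 cytosolic windows (Aars, Gars, Iars, Tars and Yars) and in none of the 14 mitochondrial windows, against 3.97% of 32851 windows of the same length. A match in each of these 5 genes is printed 5′ to 3′ on the gene's strand, with the matched bases in capitals. Aars holds a further match at positions -112 to -105, which is not printed. Positions are counted from the RefSeq start, with -1 the base before it.
Aars, positions 10 to 17, chr8:111033840-111033869, plus strand: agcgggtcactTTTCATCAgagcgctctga
Gars, positions -30 to -23, chr6:55037960-55037989, plus strand: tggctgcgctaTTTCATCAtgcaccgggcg
Iars, positions 8 to 15, chr13:49682126-49682155, plus strand: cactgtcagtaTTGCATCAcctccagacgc
Tars, positions -15 to -8, chr15:11399655-11399684, minus strand: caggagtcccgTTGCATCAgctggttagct
Yars, positions 4 to 11, chr4:129189895-129189924, plus strand: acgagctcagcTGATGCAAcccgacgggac

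For contrast, the 150 bases before the start are shown for Gars, which holds a match, for Sars, the member with the largest fold change at day 14 and no match, and for Dars, which was higher in KO at day 14 and has no match.
Gars, positions -150 to -1, chr6:55037851-55038000, plus strand: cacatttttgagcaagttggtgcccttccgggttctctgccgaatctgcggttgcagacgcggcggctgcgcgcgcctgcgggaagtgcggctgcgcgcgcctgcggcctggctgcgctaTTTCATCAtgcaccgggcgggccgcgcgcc
Sars, positions -150 to -1, chr3:108445260-108445409, minus strand: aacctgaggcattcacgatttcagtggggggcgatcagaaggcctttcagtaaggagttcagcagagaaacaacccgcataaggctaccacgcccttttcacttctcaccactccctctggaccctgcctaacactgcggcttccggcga
Dars, positions -150 to -1, chr1:128417417-128417566, minus strand: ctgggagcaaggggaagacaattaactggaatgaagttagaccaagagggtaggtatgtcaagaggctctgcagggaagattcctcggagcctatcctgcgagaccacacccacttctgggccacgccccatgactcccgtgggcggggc
Other motifs were less divided between the classes of members. CCAAT occurred in 7 of 13 cytosolic and 6 of 14 mitochondrial windows (37.4% of all windows), and CACGTG, the E-box, in 4 (Aars, Farsb, Iars and Tars) and 1 (Ears2), against 7.15%. GCGCATGCG, the NRF1 element, occurred in 2 mitochondrial windows (Vars2 and Wars2) and no cytosolic window, against 1.75%, and TGACGTCA, the cyclic AMP response element, in none of the 27, against 1.79%. These matches are descriptions of the windows and not measured binding.

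At day 1 most cytosolic synthetases were already lower in KO than in WT, and most mitochondrial ones were not called. Of the 20 cytosolic members 14 were lower and 2 higher at an adjusted p below 0.05 (edgeR), where 20.8% of all genes tested were lower and 19.5% higher. Of the 16 mitochondrial members 1 was lower, 1 higher and 14 not called. The median log2 fold change was -0.27 over the cytosolic members, -0.06 over the mitochondrial members and -0.01 over all genes.

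Yars, which charges tyrosine, stood at 228 and 228 CPM in WT and 125 and 126 in KO at day 1. Sars was at 589.8 and 616 CPM in WT and 384 and 388 in KO. The KO libraries lay well below the WT libraries for either gene. The log2 fold change was -0.86 ± 0.07 (SE, adjusted p = 6.27e-09) for Yars, -0.64 ± 0.06 (4.15e-08) for Sars and -0.54 ± 0.07 (2.35e-06) for Iars, the isoleucine enzyme. The other lower members, from Gars at -0.47 to Tars at -0.24, were Vars, Wars, Nars, Cars, Mars, Lars, Eprs, Aars and Qars. The 2 higher members were Dars (0.19 ± 0.06, adjusted p = 0.0169) and Farsa, the alpha subunit of the phenylalanine enzyme (0.18 ± 0.07, 0.0439). Farsb (0.15), Hars (0.13), Kars (0.13) and Rars (0.01) were not called. In mitochondria, Lars2, the leucine enzyme, was lower (-0.43 ± 0.09, 0.000556) and Iars2 was higher (0.24 ± 0.07, 0.00515). With library totals in place of TMM scaling, 38.3% rather than 48.4% of all genes called were higher, and the cytosolic split was 14 lower with neither Dars nor Farsa called. The calls of Dars (largest adjusted p = 0.096) and Qars (0.171) were lost without any single day 1 library, that of Farsa (0.295) without either KO day 1 library, WT day 1 replicate 1 or WT day 14 replicate 1, and that of Aars (0.0545) without either KO day 1 library. Those of Eprs (0.0645 without KO day 1 replicate 2), Tars (0.0834 without KO day 1 replicate 1) and Iars2 (0.0827; WT day 1 replicate 2 or KO day 1 replicate 2) were also lost, and without either of the latter 2 libraries 1 mitochondrial member was called.

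At day 14 more cytosolic members were lower than higher in KO, with Sars, Yars, Wars and Aars at the lowest values and Farsb, Dars and Kars at the highest. Of the 20, 11 were lower and 6 higher, where 25.9% of all genes were lower and 23.8% higher, and 3 were not called. The share of cytosolic members that were higher was thus near that of all genes. Of the 16 mitochondrial members 3 were lower, 2 higher and 11 not called. Medians were -0.25 (cytosolic), -0.11 (mitochondrial) and -0.02 (all genes). With library totals in place of TMM scaling, 42.5% rather than 47.9% of all genes called were higher. The cytosolic split was then 13 lower and 5 higher, and the mitochondrial split 5 lower and 2 higher.

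**Figure D1:**
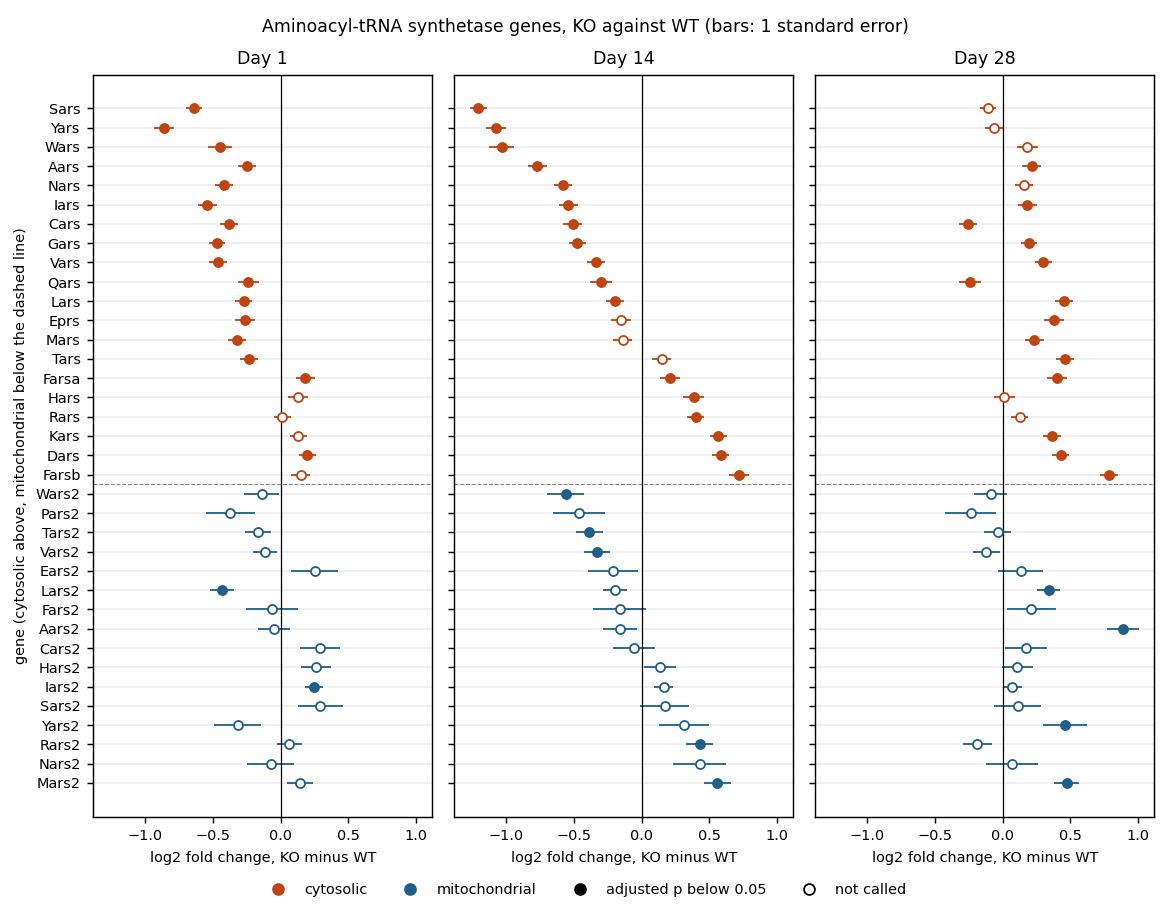
Log2 fold change of KO over WT for each of the 36 synthetase genes at days 1, 14 and 28, ordered by the day 14 value. Bars are 1 standard error and filled points have an adjusted p below 0.05: Sars lies lowest at day 14 (-1.21), Farsb highest (0.72), and 12 cytosolic members are higher in KO at day 28.

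Sars (ENSMUSG00000068739.13, chromosome 3, 108424865 to 108445209, minus strand, GRCm38/mm10) was at 669.8 and 677 CPM in WT and 283 and 299.7 in KO at day 14. Yars (ENSMUSG00000028811.11, chromosome 4, 129189760 to 129219607, plus strand) was at 253 and 258 CPM in WT and 119.7 and 123 in KO. Each KO library held far less of either transcript than each WT library. Log2 fold changes were -1.21 ± 0.06 (adjusted p = 2.05e-12) for Sars and -1.07 ± 0.07 (1.57e-10) for Yars. Wars (chromosome 12, 108860030 to 108894174, minus strand), whose enzyme charges tryptophan, was at 75.6 and 67.2 CPM in WT and 35.1 and 34.9 in KO (-1.03 ± 0.09, 9.99e-09). Aars (chromosome 8, 111033144 to 111057664, plus strand), the alanine enzyme, was at 722 and 734 CPM in WT and 418 and 436 in KO (-0.77 ± 0.07, 9.71e-09). For these 4 genes the KO and WT libraries did not overlap. Yars shares exonic bases with C77080 on the opposite strand and Aars with Exosc6 on its own strand and Gm24103 on the opposite one, and whether reads were counted by strand is unknown here, so their counts are uncertain. The remaining lower members were Nars (-0.58), Iars (-0.54), Cars for cysteine (-0.51), Gars (-0.48), Vars for valine (-0.34), Qars (-0.30) and Lars for leucine (-0.20).

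The higher members at day 14 included the paired subunits of the phenylalanine enzyme. Farsb, the beta subunit (chromosome 1, 78417975 to 78488897, minus strand, overlapping Sgpp2 on the opposite strand), was at 60.4 and 58.8 CPM in WT and 100.5 and 95.9 in KO (0.72 ± 0.07, adjusted p = 6.26e-08). Farsa was at 65.6 and 66.9 CPM in WT and 76.3 and 76.8 in KO (0.21 ± 0.07, 0.024). The subunits were higher by different amounts, and the KO libraries lay above the WT libraries for either. Dars, a member of the multisynthetase complex (chromosome 1, 128363707 to 128417368, minus strand), was at 209.7 and 221 CPM in WT and 324 and 320.1 in KO (0.58 ± 0.06, 1.73e-07). Kars, the lysine enzyme of the same complex (chromosome 8, 111993443 to 112011323, minus strand), was at 158 and 157 CPM in WT and 238 and 228 in KO (0.57 ± 0.06, 2.3e-07). Rars, the arginine enzyme, also of the complex, was at 138 and 138 CPM in WT and 177 and 187 in KO (0.40 ± 0.06, 1.88e-05). Each of these 3 complex members was separated between the lines. Hars, the histidine enzyme, was at 67.3 and 66.2 CPM in WT and 86.5 and 87.6 in KO (0.38 ± 0.08, 0.000238), and it shares exonic bases with its mitochondrial neighbour Hars2.

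The cytosolic members with the smallest differences at day 14 were Mars for methionine, at 109 and 102 CPM in WT and 91.9 and 99.1 in KO (-0.14, adjusted p = 0.096), and Tars, at 346 and 325 in WT and 366 and 377 in KO (0.15, 0.077). Neither was called, and Eprs (-0.16, 0.085) was not called either. Mars overlaps Ddit3, a stress-induced transcription factor gene, on the opposite strand. Ddit3 was at 586 and 548 CPM in WT and 84.6 and 93.4 in KO at day 14, and how far reads of Ddit3 enter the Mars count was not tested.

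Among mitochondrial members at day 14, Wars2 for tryptophan was at 22.2 and 19.0 CPM in WT and 14.0 and 14.1 in KO (-0.56 ± 0.14, adjusted p = 0.00157). Mars2 for methionine was at 26.0 and 26.0 CPM in WT and 38.7 and 37.9 in KO (0.56 ± 0.10, 6.6e-05). Rars2 for arginine was at 21.4 and 21.1 CPM in WT and 29.4 and 27.9 in KO (0.43 ± 0.10, 0.00152). These 3 genes were separated between the lines, in different directions. Tars2 (-0.39 ± 0.10, 0.00285) and Vars2 (-0.33 ± 0.09, 0.00654) were also lower. Pars2 for proline was at 12.2 and 12.0 CPM in WT and 7.93 and 9.6 in KO (-0.47, 0.051), and Nars2 at 5.82 and 6.02 in WT and 7.83 and 8.06 in KO (0.43, 0.074). Although their libraries did not overlap, neither was called, and they are among the least abundant members. Cars2 for cysteine had the smallest difference, at 16.4 and 13.8 CPM in WT and 15.1 and 14.1 in KO (-0.06, 0.78). The calls of Wars2 (adjusted p = 0.0512) and Vars2 (0.092) were lost without WT day 14 replicate 1, where 3 mitochondrial members were called, that of Tars2 (0.0644) without KO day 14 replicate 2, and 8 were called without WT day 28 replicate 1 or replicate 2. Among cytosolic members, those of Farsa (0.115 at most, without any single day 14 library), Lars (0.125; WT day 14 replicate 2 or either KO day 14 library) and Qars (0.0675; replicate 2 of WT or KO day 14) were lost.

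**Figure D2:**
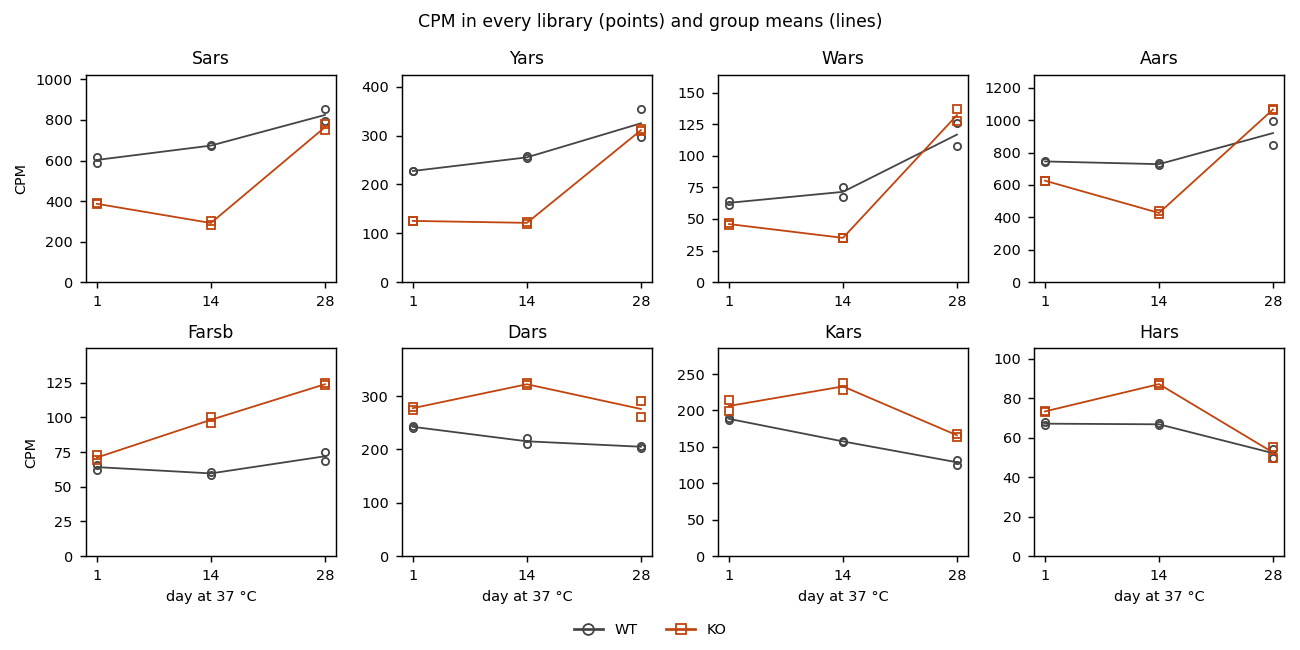
CPM of 8 cytosolic synthetase genes in each of the 12 libraries, with days at 37 °C on the horizontal axis. Points are libraries and lines join group means: Sars in KO fell to 283 and 299.7 at day 14 and stood at 779 and 749 at day 28.

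At day 28 more cytosolic members were higher in KO than lower. Of the 20, 12 were higher and 2 lower, where 19.8% of all genes were higher and 21.2% lower, and 6 were not called. Of the 16 mitochondrial members 4 were higher and 12 were not called. Medians were 0.20, 0.11 and -0.01 for cytosolic members, mitochondrial members and all genes.

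Farsb had the largest fold change, at 68.8 and 75.0 CPM in WT and 123 and 125 in KO (0.79 ± 0.07, adjusted p = 1.44e-08). Tars was at 387 and 446 CPM in WT and 578 and 568 in KO (0.46 ± 0.07, 1.07e-05), and Lars followed (0.45 ± 0.07, 1.02e-05). For Farsb and Tars the lines did not overlap. Dars (0.43), Farsa (0.40), Eprs (0.38), Kars (0.36), Vars (0.30), Mars (0.23), Aars (0.21), Gars (0.20) and Iars (0.18) were also higher. Cars (-0.26 ± 0.07, 0.00355) and Qars (-0.24 ± 0.08, 0.0177) were lower. The 3 genes with the lowest values at day 14 were not called at day 28: Sars was at 796 and 854 CPM in WT and 779 and 749 in KO (-0.11, adjusted p = 0.155), Yars at 296 and 354 in WT and 309 and 313 in KO (-0.06, 0.495), and Wars at 107 and 126 in WT and 137 and 127 in KO (0.18, 0.0711). Yars libraries of the lines overlapped at that day. Among mitochondrial members, Aars2 for alanine was at 15.8 and 17.1 CPM in WT and 32.3 and 28.7 in KO (0.89 ± 0.12, 4.43e-06). Mars2 (0.47 ± 0.09, 0.000336), Yars2 for tyrosine (0.46 ± 0.16, 0.0274) and Lars2 (0.34 ± 0.09, 0.00312) were the other higher members. With library totals in place of TMM scaling, 32.9% rather than 48.4% of all genes called were higher, with 8 cytosolic members higher and 3 lower, and 3 mitochondrial members higher and 1 lower. The call of Iars (edgeR adjusted p = 0.0358) was near the threshold. It was lost without WT day 28 replicate 1 or any 1 of the 6 KO libraries. The KO libraries of days 1 and 14 enter this comparison only through the shared scaling, filter and estimate of the spread. Calls of Aars and Yars2 were lost without WT day 28 replicate 1 or KO day 28 replicate 2. That of Gars was lost without WT day 28 replicate 1, and that of Qars without replicate 2 of either day 28 group.

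Within WT cells the change from day 1 to day 14 was small and mostly downward for cytosolic members. Of the 20, 9 fell and 2 rose, where 15.9% of all genes fell and 18.2% rose, and of the 16 mitochondrial members 2 fell and 2 rose. Tars (-0.40 ± 0.07, adjusted p = 8.23e-05), Cars (-0.36 ± 0.07, 0.000236) and Lars (-0.28 ± 0.07, 0.00208) fell most. Qars (0.31 ± 0.08, 0.00464) and Sars (0.16 ± 0.06, 0.0468) rose. In mitochondria Iars2 (141 and 132 to 102 and 98.7 CPM, -0.44 ± 0.07, 3.68e-05) and Rars2 (-0.36 ± 0.10, 0.00729) fell, and Cars2 (0.40 ± 0.15, 0.047) and Lars2 (0.30 ± 0.09, 0.00951) rose. Medians were -0.13 over the cytosolic members, 0.05 over the mitochondrial members and 0.000601 over all genes. The cytosolic count was 4 without WT day 14 replicate 2, 5 without WT day 1 replicate 2 or WT day 14 replicate 1, 6 without WT or KO day 1 replicate 1, and 7 without KO day 1 replicate 2 or either KO day 14 library, and the mitochondrial count was 2 without WT day 1 replicate 2. The calls of Sars (adjusted p up to 0.24; any 1 of the 8 libraries of days 1 and 14), Cars2 (0.39; any of these but WT day 14 replicate 2), Lars2 (0.177; WT day 1 replicate 2 or either WT day 14 library), Qars (0.076) and Rars2 (0.0533; WT day 14 replicate 2, as for Qars) were among the 10 of 15 lost when 1 library was left out. With library totals in place of TMM scaling 41.1% rather than 53.3% of all genes called rose, with 12 cytosolic members lower and 1 higher, and 2 mitochondrial members lower and 1 higher.

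The classes of synthetase moved apart in WT cells from day 14 to day 28. Of the 20 cytosolic members 12 rose and 2 fell, where 17.9% of all genes rose and 16.8% fell, whereas of the 16 mitochondrial members 5 fell and 11 were not called. Medians were 0.27 (cytosolic), -0.22 (mitochondrial) and -0.01 (all genes). Wars rose most (0.70 ± 0.08, adjusted p = 1.9e-06), from 75.6 and 67.2 to 107 and 126 CPM, followed by Iars (0.49 ± 0.07, 1.55e-05) and Nars (0.45 ± 0.07, 3.06e-05). Yars, Aars, Eprs, Tars, Cars, Sars, Vars, Farsb and Gars rose by 0.35 to 0.23. Hars (-0.36 ± 0.08, 0.00125) and Kars (-0.29 ± 0.06, 0.00146) fell. Vars2 (-0.54 ± 0.09, 0.000152), Cars2 (-0.47 ± 0.16, 0.0223) and Tars2 (-0.41 ± 0.10, 0.00298) led the mitochondrial decrease, with Aars2 (-0.38) and Lars2 (-0.31). The call of Cars2 was lost without WT day 14 replicate 1 or WT day 28 replicate 2 (adjusted p up to 0.256) and that of Aars2 without WT day 14 replicate 2 or WT day 28 replicate 1 (0.17), and those of Gars (0.0844), Vars (0.0641) and Farsb (0.0625) were also lost without 1 library, WT day 14 replicate 1 for Gars and Vars and WT day 14 replicate 2 or WT day 28 replicate 2 for Farsb. From day 1 to day 28 as a whole, 6 cytosolic members rose and 7 fell (24.6% and 23.4% of all genes), and 1 mitochondrial member rose and 6 fell. The median was 0.11 over the cytosolic members, -0.11 over the mitochondrial members and -0.00379 over all genes. Over those 28 days Wars (0.89 ± 0.08, 1.3e-08), Yars (0.51 ± 0.07, 3.86e-06) and Sars (0.45 ± 0.06, 3.38e-06) rose, and Kars (-0.55 ± 0.06, 3.86e-07), Hars (-0.36 ± 0.07, 0.000463) and Farsa (-0.35 ± 0.07, 0.000362) fell. Kars was at 187 and 190.2 CPM at day 1 and 132 and 125 at day 28, with no overlap. Wars2 was the mitochondrial member that rose (0.47 ± 0.12, 0.00316), and Rars2 (-0.63 ± 0.10, 2.16e-05), Iars2 (-0.61 ± 0.07, 2.46e-07) and Vars2 (-0.55 ± 0.09, 4.35e-05) fell most.

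In KO cells cytosolic members moved in both directions from day 1 to day 14. Most of the 20 rose from day 14 to day 28. From day 1 to day 14, 7 of the 20 fell and 6 rose, where 18% of all genes fell and 19.4% rose, and 2 of the 16 mitochondrial members fell and 2 rose. Aars fell (-0.55 ± 0.07, adjusted p = 2.18e-06) from 627 and 625 to 418 and 436 CPM, as did Cars (-0.49 ± 0.07, 9.83e-06) and Sars (-0.41 ± 0.06, 2.69e-05). Farsb rose (0.47 ± 0.07, 2.3e-05) from 72.9 and 69.2 to 100.5 and 95.9 CPM, with Hars (0.25 ± 0.07, 0.0106) and Qars (0.25 ± 0.08, 0.0224). Among mitochondrial members Lars2 (0.53 ± 0.09, 9.2e-05) and Mars2 (0.42 ± 0.09, 0.00121) rose, and Iars2 (-0.52 ± 0.07, 3.35e-06) and Tars2 (-0.30 ± 0.10, 0.0189) fell. Medians were -0.07, -0.02 and 0 for cytosolic members, mitochondrial members and all genes. The cytosolic count was 6 without KO day 1 replicate 1 and 7 without KO day 1 replicate 2 or either KO day 14 library. Calls of Hars, Dars, Farsa and Lars were lost without any single 1 of those 4 libraries. Qars lost its call without either KO day 1 library or KO day 14 replicate 1. Rars lost its call without either KO day 1 library or KO day 14 replicate 2. Kars lost its call without KO day 1 replicate 1 or either KO day 14 library, and Tars2 without KO day 1 or KO day 14 replicate 2. Among the 6 cytosolic members that rose, Farsb alone kept its call in each such fit. With library totals in place of TMM scaling, 43.4% rather than 51.9% of all genes called rose. Of the cytosolic members 3 then rose and 8 fell, and of the mitochondrial members 2 rose and 3 fell.

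In KO cells 14 cytosolic members rose and 4 fell from day 14 to day 28, where 25.6% of all genes rose and 25.1% fell. The cytosolic median was 0.65, against -0.06 over the mitochondrial members, of which 5 rose and 4 fell, and -0.01 over all genes. Wars rose most, from 35.1 and 34.9 to 137 and 127 CPM (1.92 ± 0.09, adjusted p = 2.17e-13). Sars rose from 283 and 299.7 to 779 and 749 CPM (1.39 ± 0.06, 1.38e-13), and Yars from 119.7 and 123 to 309 and 313 (1.36 ± 0.07, 2.48e-12). The day 28 libraries lay far above the day 14 libraries for these 3 genes. Aars (1.32), Iars (1.22), Nars (1.19), Vars (0.92), Gars (0.90), Eprs (0.86), Lars (0.68), Tars (0.62), Cars (0.55), Farsb (0.34) and Mars (0.21) also rose. Hars fell from 86.5 and 87.6 to 49.5 and 55.4 CPM (-0.73 ± 0.08, 5.69e-08), Kars from 238 and 228 to 168 and 164 (-0.49 ± 0.06, 1.09e-06) and Rars from 177 and 187 to 147 and 147 (-0.31 ± 0.06, 0.000263). Dars (adjusted p = 0.00502) also fell. These 4 were higher in KO at day 14, in a comparison that shares the KO day 14 libraries with this one. Farsa (0.07) and Qars (-0.06) were not called. Among mitochondrial members, Aars2 (20.5 and 18.0 to 32.3 and 28.7 CPM, 0.66 ± 0.12, 8.43e-05), Wars2 (0.62 ± 0.13, 0.000422) and Yars2 (0.43 ± 0.17, 0.0346) rose most. Rars2 fell from 29.4 and 27.9 to 15.5 and 15.5 CPM (-0.88 ± 0.10, 3.35e-07), with Vars2 (-0.33 ± 0.10, 0.00677) and Hars2 (-0.31 ± 0.11, 0.0272). The call of Yars2 was lost without KO day 28 replicate 2 or either KO day 14 library (adjusted p up to 0.319), that of Hars2 without KO day 14 replicate 2 or KO day 28 replicate 1 (0.269) that of Mars without KO day 14 replicate 1 (0.161) and that of Dars without KO day 28 replicate 2 (0.0984), and 4 mitochondrial members were called without KO day 14 replicate 2.

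Over days 1 to 28 in KO, 13 cytosolic members rose and 2 fell (28.2% and 27.4% of all genes), and 6 mitochondrial members rose and 5 fell. The median was 0.685 over the cytosolic members, -0.10 over the mitochondrial members and 0.01 over all genes. Wars (1.52 ± 0.08, adjusted p = 3.78e-12), Yars (1.31 ± 0.07, 3.49e-12) and Iars (1.12 ± 0.07, 2.22e-11) rose most. Hars (-0.48 ± 0.08, 1.69e-05) and Kars (-0.31 ± 0.06, 0.000219) were the falling cytosolic members. Of the mitochondrial members Yars2 (0.81 ± 0.17, 0.000396), Lars2 (0.76 ± 0.09, 3.11e-07) and Aars2 (0.61 ± 0.12, 0.000147) rose most, and Rars2 (-0.88 ± 0.10, 2.74e-07), Iars2 (-0.78 ± 0.07, 3.65e-09) and Vars2 (-0.55 ± 0.09, 3.99e-05) fell most.

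Whether the time course differed between the lines was tested as a difference of changes, KO minus WT. From day 14 to day 28 the cytosolic rise was larger in KO: for 12 of the 20 members the change was higher in KO and for 2 it was lower, where 12.6% of all genes were higher and 11.5% lower. The difference was 1.21 ± 0.12 (adjusted p = 2.1e-07) for Wars, 1.10 ± 0.09 (6.35e-09) for Sars and 1.01 ± 0.10 (2.06e-07) for Yars. Aars (0.98), Nars (0.74), Iars (0.73), Gars (0.67), Lars (0.65), Vars (0.64), Eprs (0.54), Mars (0.38) and Tars (0.31) followed. Hars (-0.37 ± 0.11, 0.0147) and Rars (-0.27 ± 0.09, 0.0266) differed the other way. Of the 16 mitochondrial members 2 were higher and 1 lower: Aars2 (1.05 ± 0.17, 0.000125), which fell in WT and rose in KO, Lars2 (0.54 ± 0.12, 0.00254), which did likewise, and Rars2 (-0.61 ± 0.15, 0.00401). Medians were 0.46, 0.22 and -0.00291 for cytosolic members, mitochondrial members and all genes. The calls of Hars (adjusted p up to 0.0743; replicate 2 of WT or KO day 14, or KO day 28 replicate 1), Rars (0.137; either WT day 14 or KO day 28 library, or KO day 14 replicate 2), Mars (0.0517) and Tars (0.102; replicate 1 of WT or KO day 14, as for Mars) were lost when 1 library was left out.

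**Figure D3:**
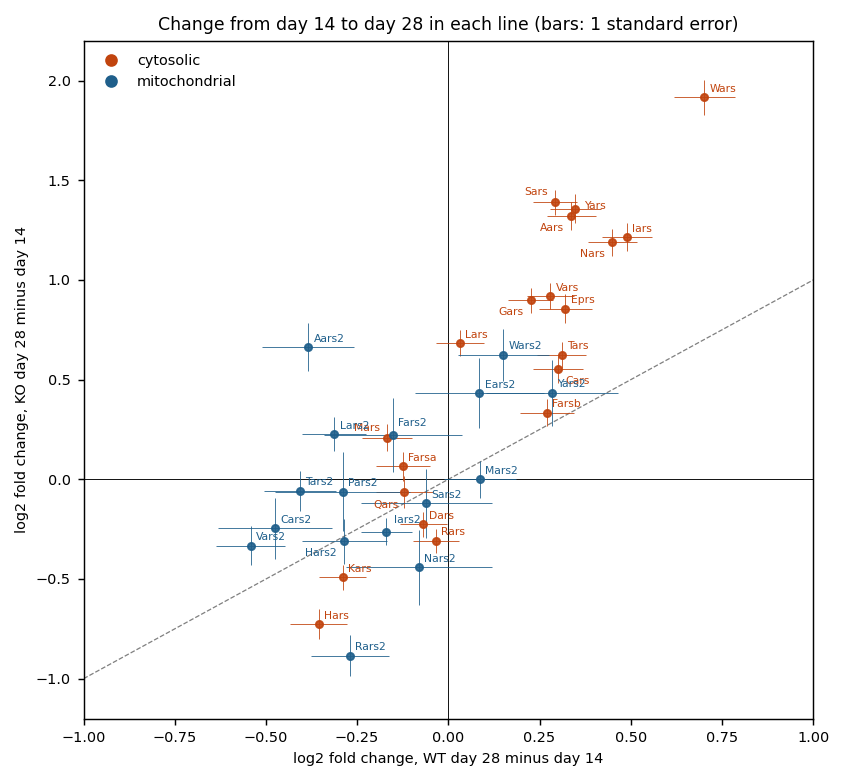
Log2 fold change from day 14 to day 28 in KO (vertical) against WT (horizontal) for the 36 synthetase genes, with bars of 1 standard error. On the dashed line the change is equal in the lines; Wars (0.70 in WT, 1.92 in KO) and Sars (0.29, 1.39) lie far above it and Rars2 below it.

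From day 1 to day 14 the change was higher in KO for 5 cytosolic members and lower for 3, where 9.19% of all genes were higher and 9.65% lower. Farsb (0.57 ± 0.10, adjusted p = 0.000429), Kars (0.44 ± 0.09, 0.00135) and Dars (0.39 ± 0.09, 0.00384) were higher, as were Rars and Tars. Wars (-0.58 ± 0.13, 0.0025), Sars (-0.57 ± 0.09, 8.9e-05) and Aars (-0.52 ± 0.10, 0.000649) were lower. For Sars the WT libraries rose while the KO libraries fell over this interval. Mars2 was the mitochondrial member called (0.42 ± 0.14, 0.0362), and 15 were not called. Its call was lost without any single 1 of the 8 libraries of days 1 and 14 (adjusted p up to 0.152), and that of Tars without WT day 14 replicate 2 (0.0537). Medians were 0.05, -0.11 and 0.00269 for cytosolic members, mitochondrial members and all genes.

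Set side by side in each library, the cytosolic and mitochondrial sets drew apart at day 28 in either line and lay closest in KO at day 14. The mean log2 CPM of the 20 cytosolic members minus that of the 16 mitochondrial members was 3.47 and 3.55 in the WT libraries of day 1, 3.37 and 3.36 in those of day 14, and 3.62 and 3.78 in those of day 28. The corresponding KO values were 3.30 and 3.24, 3.15 and 3.19, and 3.785 and 3.74. KO libraries lay below WT libraries at days 1 and 14, whereas at day 28 the WT libraries spread from 3.62 to 3.78, which overlapped the KO range. The summed level of the cytosolic members was 6527 and 6611, 6027 and 6057, and 6836 and 7728 CPM in WT, and 5337 and 5312, 4836 and 4918, and 8676 and 8418 CPM in KO. That of the mitochondrial members was 455.3 and 428.3, 420.3 and 419, and 365.7 and 354.5 CPM in WT, and 445.8 and 463.5, 421.4 and 417.5, and 394.4 and 411 CPM in KO. Relative to their level, the mitochondrial sums covered a narrower range than the cytosolic sums, and the replicates of WT at day 28 differed more in the cytosolic sum than those of any other group.

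**Figure D4:**
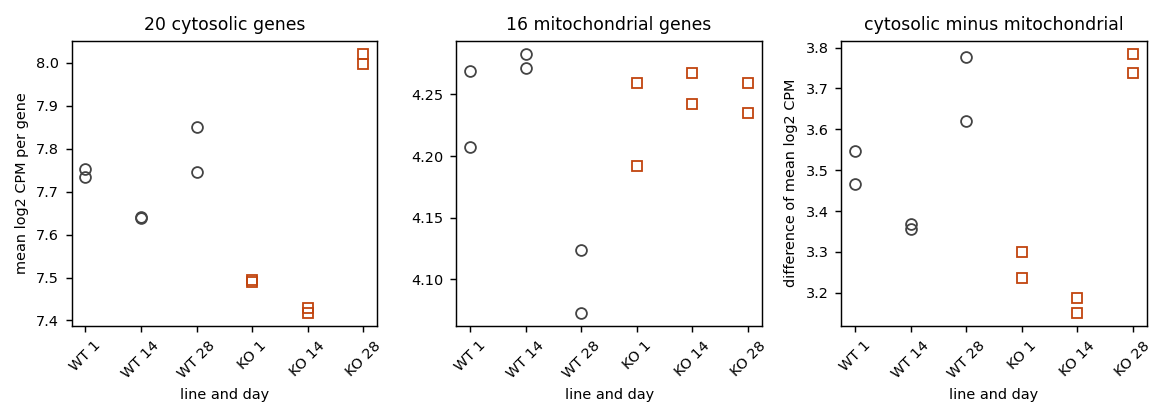
Mean log2 CPM of the 20 cytosolic members, of the 16 mitochondrial members and their difference in each library, by days at 37 °C. Points are single libraries: the difference runs from 3.15 in KO at day 14 to 3.785 in KO at day 28.

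For 13 amino acids the list holds a cytosolic gene and a mitochondrial gene of the same symbol with suffix 2, and the partners were often called differently. Phenylalanine (Farsa, Farsb and Fars2) and glutamate and proline (Eprs, Ears2 and Pars2) were not among these pairs. At day 14 Farsa (0.21) and Farsb (0.72) were higher in KO, and Fars2 (-0.16) was not called. At day 14 the KO minus WT call was shared in 3 pairs, tryptophan (Wars -1.03, Wars2 -0.56), valine (Vars -0.34, Vars2 -0.33) and arginine (Rars 0.40, Rars2 0.43). In 8 pairs the cytosolic gene was called alone, as for serine (Sars -1.21, Sars2 0.17, not called) and tyrosine (Yars -1.07, Yars2 0.31, not called), and in 2 the mitochondrial gene alone (Mars2 and Tars2). Without WT day 14 replicate 1 neither Wars2 nor Vars2 was called, so the tryptophan and valine pairs rested on that library. At day 1 both partners were called in 2 pairs, with the same sign for leucine and opposite signs for isoleucine, and at day 28 in 3 pairs (alanine, leucine and methionine), each higher. From day 14 to day 28 in WT, 4 pairs were called in opposite directions, alanine (Aars 0.34, Aars2 -0.38), cysteine (Cars 0.30, Cars2 -0.47), threonine (Tars 0.31, Tars2 -0.41) and valine (Vars 0.28, Vars2 -0.54), and no pair was called in the same direction. The calls of Cars2 and Vars, and with them the cysteine and valine pairs, were lost without WT day 14 replicate 1, that of Cars2 also without WT day 28 replicate 2, and that of Aars2 without WT day 14 replicate 2 or WT day 28 replicate 1. In KO over the same interval 6 pairs were called in the same direction (alanine, histidine, leucine, arginine, tryptophan and tyrosine) and 2 in opposite directions (isoleucine and valine). The calls of Yars2 (adjusted p up to 0.319), Hars2 (0.269), Lars2 (0.246) and Iars2 (0.0514), and with them the tyrosine, histidine, leucine and isoleucine pairs, were lost without KO day 14 replicate 2. A call also depends on the SE, which was mostly larger for the less abundant mitochondrial genes. At day 14 Nars2 at 0.43 (SE 0.195) was not called, whereas Rars at 0.40 (SE 0.06) was. A call of 1 partner alone therefore does not show that the partners differed, and the difference between partners was not tested.

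The cytosolic members were also grouped by their place in the multisynthetase complex and by catalytic class. Over all genes tested, 23.8% were higher and 25.9% lower in KO at day 14, and 19.8% and 21.2% at day 28. In KO from day 14 to day 28, 25.6% of all genes rose and 25.1% fell. The 8 complex members (Dars, Eprs, Iars, Kars, Lars, Mars, Qars and Rars) had a median of -0.15 at day 14, with 3 higher and 3 lower, against -0.49 for the 12 others, with 3 higher and 8 lower. From day 14 to day 28 in KO, 4 complex members rose and 3 fell (median 0.07), and 10 of the others rose and 1 fell (median 0.91). At day 28 6 were higher and 1 lower in each group, with medians of 0.30 and 0.19. Of the 9 class I members 7 were lower and 1 higher at day 14 (median -0.34), and of the 10 class II members 4 were lower and 5 higher (median 0.18), Eprs being left out because it joins an enzyme of each class. With groups this small, some of these counts, such as 3 of the 12 others higher at day 14, were near the share of all genes. The differences between these groups were not tested.

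Position on the chromosome went with part of the difference between the lines. Genes of chromosome 1 had a median log2 fold change of 0.377, 0.408 and 0.405 at days 1, 14 and 28 (821 genes), and those of chromosome 4 a median of -0.176, -0.224 and -0.221 (840 genes). Dars, Eprs, Farsb, Iars2 and Mars2 lie on chromosome 1, and Yars, Pars2 and Rars2 on chromosome 4. With the chromosome's median subtracted, the day 14 value was 0.31 for Farsb, 0.17 for Dars and 0.15 for Mars2, and -0.56 for Eprs. Kars was at 0.44, Hars at 0.28 and Farsa at 0.08. Sars was at -1.22, Wars at -0.94, Aars at -0.90 and Yars at -0.85. Rars2 was at 0.65 and Yars2, on chromosome 16 (median -0.247 at day 14), at 0.56. The median after subtraction at days 1, 14 and 28 was -0.376, -0.328 and 0.119 over the cytosolic members and -0.102, -0.178 and 0.0324 over the mitochondrial members. At day 1 Dars was at -0.18 and Iars2 at -0.13, and at day 28 Farsb was at 0.38, Dars at 0.02, Mars2 at 0.07 and Eprs at -0.02, so the called values of Dars and Iars2 at day 1 and of Eprs at day 28 changed sign by the subtraction. The part of chromosome position in the differences between the lines was not tested.

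**Figure D5:**
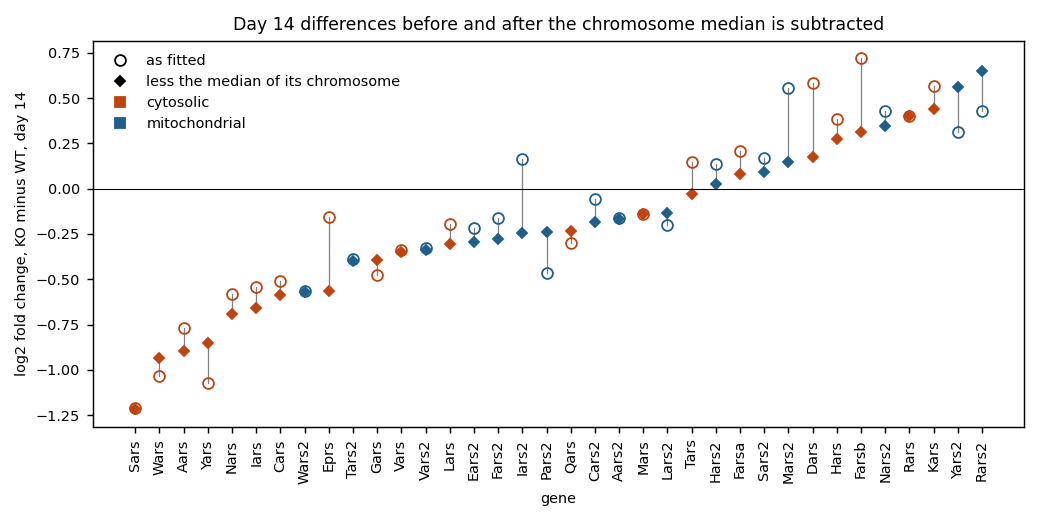
Day 14 log2 fold change of KO over WT for the 36 synthetase genes before and after the median of all tested genes on the same chromosome is subtracted. Farsb moves from 0.72 to 0.31 and Dars from 0.58 to 0.17, while Sars stays at -1.21 before and -1.22 after.

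Atf4 and the genes listed as its targets, 32 in all, were measured in the same libraries, and nearly all were lower in KO at days 1 and 14. Of the 32, 30 were lower at day 1, 29 lower and 1 higher (Ddit4) at day 14, and 12 higher and 9 lower at day 28, with medians of -0.835, -1.06 and 0.103. Over all genes tested 20.8% were lower at day 1, 25.9% lower and 23.8% higher at day 14, and 21.2% lower and 19.8% higher at day 28, so the share of the list lower at day 28 was near the background. Atf4 was at 537 and 531, 620.5 and 595, and 748 and 771 CPM in WT, and at 373 and 366, 369 and 382, and 1023 and 1038 in KO, at days 1, 14 and 28. The lines did not overlap at any of the 3 days, and KO moved from below WT to above it. The KO minus WT value of Atf4 was -0.70 ± 0.06 (adjusted p = 3.79e-09) at day 14, and the change from day 14 to day 28 was higher in KO by 1.14 ± 0.08 (1.92e-09). The largest day 14 values were those of Stc2, a secreted glycoprotein (-3.06 ± 0.25, 2.63e-09), Cth, a cysteine-forming enzyme (-3.06 ± 0.26, 5.14e-09), and Gdf15, a stress cytokine (-3.05 ± 0.29, 2.2e-08). The change from day 14 to day 28 was higher in KO for 29 of the 32 (median 1.13) and lower for 1, against 12.6% and 11.5% of all genes tested. Many, not all, cytosolic synthetases are themselves ATF4 targets in textbook accounts. This list is therefore related to them and is not a separate line of support.

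Other genes of the translation machinery were set beside the synthetases, in short lists whose counts are read against all genes tested (19.5% higher and 20.8% lower at day 1, 23.8% and 25.9% at day 14, 19.8% and 21.2% at day 28). All 5 cytosolic elongation factors were lower in KO at day 14, with Eef2, the translocase, at -1.12 ± 0.06 (adjusted p = 8.83e-12), Eef1a1, which delivers charged tRNA, at -0.69 ± 0.07 (1.38e-07) and Eef1b2 at -0.54 ± 0.07 (7.2e-07). At day 1, 3 of the 5 were lower, and at day 28, 2 were higher and 1 lower. Xpot, which exports tRNA from the nucleus, was at -0.69 ± 0.07 (6.38e-08) at day 14 and 0.33 at day 28. Of the 7 further synthetases and tRNA partners that include Xpot, 2 were higher and 1 lower at day 1, 3 higher and 1 lower at day 14, and 2 higher and 1 lower at day 28. Prorsd1 (0.915 ± 0.17, 0.000105) was among those higher at day 14. Of 13 mitochondrial translation genes 5 were higher and 1 lower at day 14, led by Qrsl1, a subunit of the glutamine amidotransferase (0.80 ± 0.15, 0.00016), Tufm, the mitochondrial elongation factor Tu (0.66 ± 0.10, 2.47e-05), and Tsfm, its exchange factor (0.43 ± 0.12, 0.00522). At day 1, 2 of the 13 were higher and 3 lower, and at day 28, 3 were higher and 2 lower, which is near the shares over all genes. Of the 3 scaffold genes of the multisynthetase complex, Eef1e1 (0.34 ± 0.12, 0.0269) and Aimp2 (0.29 ± 0.11, 0.0373) were higher at day 14, all 3 were higher at day 28 and the log2 fold changes at day 1 lay between -0.05 and 0.12.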

How the data were processed

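Polyadenylated RNA from WT and Piezo1 KO OCY454 cells at 3 times was sequenced, with 2 libraries in each of 6 groups. The deposited table holds whole-number read counts per gene and library, which the authors made with STAR, featureCounts (Subread) and the mm10 genome, per the submitters' processing notes. For tool versions, the gene annotation, strand and reads with several matches, the settings were "not given in the sources used here". Members and gene lists were chosen with earlier results of these data known.

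Of 32248 entries, 3 transgene entries were left out, and 32245 genes remained. Genes were kept by filterByExpr (minimum count 10, minimum total 15), which left 13772. Counts were scaled by TMM and fitted in R 4.3.3 with edgeR 4.0.16 (quasi-likelihood test, 6 group means, 6 residual and 14.6 prior degrees of freedom, biological coefficient of variation 5.53%). There were 11 comparisons, each with Benjamini-Hochberg adjustment over all genes tested, and a call is an adjusted p below 0.05. The standard error (SE) of a log2 fold change is its size divided by the square root of the F statistic. CPM (counts relative to the TMM-scaled library total) are given by library, and log2 CPM used a prior count of 2. CPM per kb used the length of the longest principal transcript of an mm10 annotation, which carried the symbols of 97.5% of gene entries and 99.2% of genes tested. Counting error is small at these depths for most members, and the least abundant, Nars2, had 52 counts in its lowest library. Steps across all genes were tested on simulated data.

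Values in each library were given for the 5 cytosolic members with the largest and the 2 with the smallest absolute log2 fold change at day 14, the 4 and 1 such mitochondrial members, and members called against most of their class. In other comparisons the 3 highest and 3 lowest called members of each class were named, and in the lists of ATF4 targets, elongation factors, further synthetases and tRNA partners, mitochondrial translation genes and scaffold genes the 3 called with the largest day 14 change; other names and values were chosen after their values were seen. Alternatives were library totals, DESeq2 size factors, no low-count filter, the DESeq2 1.42.0 Wald test, the compared groups alone, a replicate block, each library left out and subtraction of chromosome medians. Promoter windows came from RefSeq (GRCm38.p6). Some items that these rules select are not reported here.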

Additional observations from a re-analysis of the deposited data

Results flagged for a closer look

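For 26 results the change between days differed between the lines by a test of the difference itself (edgeR, adjusted over all genes tested). All values are KO change minus WT change on the log2 scale, and no explanation was tested.

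From day 1 to day 14 the change was higher in KO for Farsb by 0.573, Kars by 0.435, Mars2 by 0.416, Dars by 0.389, Rars by 0.387 and Tars by 0.383. It was lower in KO for Wars (-0.585), Sars (-0.566) and Aars (-0.519).

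Between days 14 and 28 the change was higher in KO for the cytosolic Wars by 1.21, Sars by 1.1, Yars by 1.01, Aars by 0.983, Nars by 0.74, Iars by 0.726, Gars by 0.672, Lars by 0.652, Vars by 0.64, Eprs by 0.536, Mars by 0.375 and Tars by 0.314. It was lower for Hars (-0.373) and Rars (-0.275). Among mitochondrial members it was higher for Aars2 by 1.05 and Lars2 by 0.54, and lower for Rars2 (-0.615). Wars, Sars, Aars and Rars appear in both intervals with opposite signs and Tars with the same sign, and both differences share the day 14 libraries. Calls were lost when single libraries were left out for Mars2 and Tars in the earlier interval (adjusted p up to 0.152 and 0.0537), and for Hars, Rars, Mars and Tars in the later (0.0743, 0.137, 0.0517 and 0.102).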

How the results depend on the processing

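No member's called value changed sign under the alternative fits; subtracting the chromosome median turned the sign of Dars and Iars2 at day 1 and Eprs at day 28. Of 396 member results, 208 were called, and 393 kept their side of the threshold with the replicate number as a block, 392 with DESeq2 size factors, 381 without the filter, 376 with the DESeq2 Wald test, 365 with library totals and 354 with the compared groups alone. With the compared groups alone, the mitochondrial count was 5 at day 1, 8 at day 14, 3 for WT from day 14 to 28 and 3 for the difference of change from day 1 to 14, and the cytosolic count at day 28 was 8. The DESeq2 Wald test gave mitochondrial counts of 3 for WT and 5 for KO from day 14 to 28. For the mitochondrial difference of change from day 1 to 14, edgeR without the filter gave 0 (4 at an unadjusted p under 0.05: 3 higher, 1 lower), the DESeq2 Wald test gave 0 (2 higher unadjusted), and edgeR with the filter gave 1 (3 higher and 1 lower unadjusted). The cause was not tested for any of these. Leaving out 1 library at a time gave, for KO minus WT, 11 to 17, 14 to 19 and 11 to 16 cytosolic calls and 1 to 3, 3 to 8 and 3 to 4 mitochondrial calls at days 1, 14 and 28. From day 1 to 14 it gave 4 to 14 cytosolic and 2 to 6 mitochondrial calls in WT, 6 to 14 and 3 to 4 in KO, and 7 to 10 and 0 to 1 for the difference; the 0 arose without any of 7 libraries of those days, all but WT day 1 replicate 2. From day 14 to 28 it gave 12 to 15 and 4 to 6 in WT, 17 to 18 and 4 to 10 in KO, and 11 to 15 and 3 to 4 for the difference. From day 1 to 28 it gave 13 to 17 and 5 to 7 in WT and 15 to 16 and 9 to 11 in KO. Over 15 pairs of groups the correlation of same-numbered replicate deviations was -0.0402 to 0.112, highest between WT and KO at day 28. The labels do not say whether replicate numbers pair the samples, and low correlations over all genes cannot exclude a shared batch. With the replicate block, Pars2 at day 14 was called (-0.471, adjusted p = 0.0487), and Sars in WT from day 1 to 14 (0.0515) and Ears2 in KO from day 14 to 28 (0.0552) were not. With 2 libraries a group and 52 counts in the lowest library for Nars2, small differences of the least abundant mitochondrial members were not detectable.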
